A study of Drosophila melanogaster with 6 samples.

Results

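The histone genes of *Drosophila melanogaster* were followed in whole pharate adult males, wild type or with a K27R substitution, lysine 27 to arginine, in one or both genes for histone H3.3. They were taken by gene symbol and not by any measured value: 10 of the 15115 genes listed with an RPKM value (reads scaled to the length of the gene and the total of the library) carried one of these symbols. Of these genes, 5 stand for the replication-coupled histones (*His1*, *His2A*, *His2B*, *His3* and *His4*) and the other 5 are single genes outside that array (*His3.3A*, *His3.3B*, *His4r*, *His2Av* and *cid*). One further symbol that begins with the same letters, *HisCl1*, names a histamine-gated chloride channel and was left out. RNA was sequenced from 6 libraries, 2 for each of 3 genotypes. Wild type males were *yw*. *H3.3B K27R* males, the single mutant, were *yw* with the substitution in the X-linked *His3.3B* gene, which males hold in a single copy, and kept a wild type *His3.3A*. Double *H3.3 K27R* males, the double mutant, were also *yw*, had the same *His3.3B* allele and were homozygous for the substitution in *His3.3A*, so that no wild type H3.3 gene was left. All animals were males at 96 to 108 h after puparium formation, dissected out of the pupal case and pooled as 30 whole males in each library. Both alleles were made by CRISPR/Cas9 at the endogenous genes. The labels do not say whether the libraries of a genotype came from separate crosses or which of the isolated mutant lines was sequenced, so p-values measure only the spread between these libraries, which may be technical.

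Histone proteins pack DNA into nucleosomes, each built on an octamer of H2A, H2B, H3 and H4, and the linker histone H1 sits where the DNA enters and leaves. The replication-coupled genes lie in a tandem array, are transcribed mainly during S phase, and give mRNAs that end in a stem-loop in place of a poly(A) tail. Replication-independent genes are transcribed throughout the cell cycle, mostly have introns, and give polyadenylated mRNAs, so they supply histones in cells that no longer divide, which make up most of a pharate adult fly. *His3.3A* and *His3.3B* encode the same H3.3 protein. *His4r*, the H4 replacement gene, encodes the same H4 protein as the array. *His2Av* encodes H2Av, the single fly H2A variant, which combines roles that H2A.Z and H2A.X have in other animals. *cid* encodes the centromeric H3 of the fly, the counterpart of CENP-A.

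The values of *His1*, *His2A*, *His2B*, *His3* and *His4* are not those of 1 locus each. The genome used for alignment had the array removed and held 1 copy of every replication-coupled gene on an added chromosome, so these values collect reads from all array copies. The BDGP6 annotation, a later build than the dm3 of the files, lists 111 copies between positions 21416953 and 21541681 of chromosome arm 2L, with 23 of *His1*, 20 of *His2A*, 23 of *His2B*, 23 of *His3* and 22 of *His4*. In the same annotation *His3.3B* (FBgn0004828) lies on the minus strand of the X chromosome from 9152523 to 9156669 with 4 isoforms, and *His3.3A* (FBgn0014857) on the plus strand of 2L from 5055058 to 5056149 with 3 isoforms. *His3.3A* overlaps *Nepl3* on the opposite strand, and whether the counting used strand is not given in the sources used here. *His4r* (FBgn0013981) lies on 3R from 14625755 to 14626614 with 4 isoforms, *His2Av* (FBgn0001197) on 3R from 26866929 to 26869220 with 2, and *cid* (FBgn0040477) on 2R from 13485617 to 13486631 with 1. Genes that encode the same protein share coding stretches, and how reads that matched more than 1 place were treated is not given, so the split between *His3.3A*, *His3.3B* and *His3*, and between *His4* and *His4r*, carries that uncertainty.

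The libraries held between 1535941 and 2118264 reads. At the smallest and largest totals a gene of 1 kb with 3 reads is listed at 1.95 and 1.42 RPKM. Every RPKM value above 0 was a whole number of reads once length and total were taken into account, and the reads behind each histone value are given from that step. The transcripts *roX1* and *roX2*, which are specific to male dosage compensation, summed to between 185.2 and 241.9 RPKM in every library, and 3 female yolk protein genes summed to at most 2.92 RPKM with *Yp1* at 0 throughout. The 7 genes of late spermatogenesis that were looked up were listed, none of them at 0. All 7 had both libraries of each mutant below both of wild type, as for 12.1% of all genes tested. Their summed level was 1310 to 1349 RPKM in wild type, 846.8 to 902.0 RPKM in the single mutant and 831.7 to 854.3 RPKM in the double mutant, with 0 of the 7 at an adjusted p below 0.05. In bulk RNA from whole animals, fewer cells of a type and less RNA per cell cannot be told apart.

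The replication-independent *His4r* and *His3.3B* were the most abundant histone transcripts per length in these libraries. Whether mRNAs with and without a poly(A) tail entered the libraries equally was not tested. Rankings and shares that span both classes carry that uncertainty. *His4r* averaged 199.4 RPKM over the 6 libraries, which placed it above 97.4% of the listed genes, and *His3.3B* averaged 115.6 RPKM, above 95.9%. *His1*, at 76.9 RPKM, was the highest of the replication-coupled genes, followed by *His2A* at 73.1 RPKM and *His2B* at 66.6 RPKM. *His3.3A* averaged 53.3 RPKM, *His4* 44.1 RPKM, *His3* 32.4 RPKM and *His2Av* 32.1 RPKM, and *cid* stood far below at 0.57 RPKM. The order was clear in only a few places. The lowest *His4r* library, at 166.7 RPKM, was above the highest *His3.3B* library, at 125.5 RPKM, and the lowest *His2Av* library was above the highest *cid* library. The lowest *His3.3B* library and the highest *His1* library both stood at 100.5 RPKM, but within every library *His3.3B* was above *His1*. Every lower pair of neighbours down to *His2Av* overlapped and changed order between libraries, so those neighbours were not separated beyond their spread. Among the 9 genes with a mean of at least 1 RPKM, *His3.3B* varied least over the 6 libraries, with a coefficient of variation of 7.79%, and *His3* most, at 36.2% on 15 to 37 reads. Of the 27 pairs of libraries of 1 genotype, for 9 genes in 3 genotypes, 3 had a 95% counting interval of their difference that excluded 0. The 3 pairs were *His3.3A* in wild type and in the single mutant, and *His1* in the double mutant. The intervals were not corrected for their number, and among 27 some can exclude 0 through counting error alone.

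**Figure D1:**
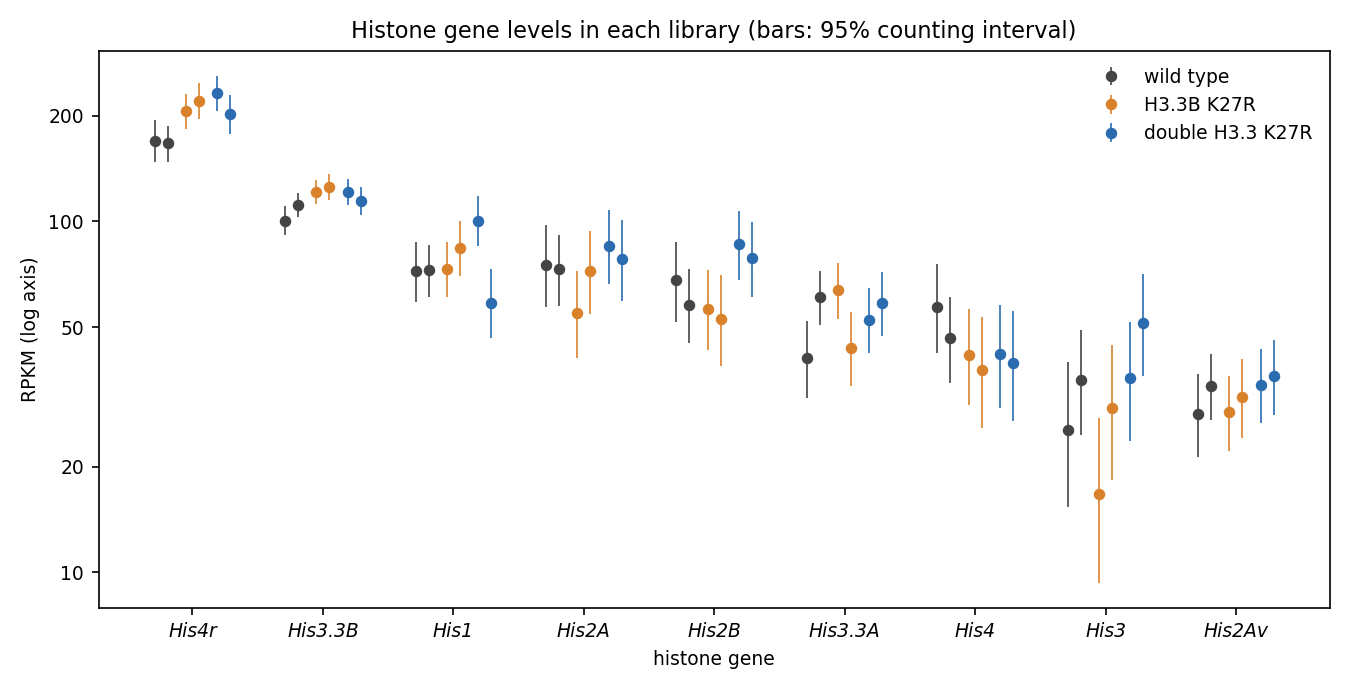
Levels of 9 histone genes in RPKM on a log axis, with 1 point for each of the 6 libraries coloured by genotype, in the order replicate 1 and replicate 2, and bars for the exact 95% Poisson interval of the reads. *His4r* lay between 166.7 and 231.9 RPKM and *His3.3B* between 100.5 and 125.5 RPKM, while *His3* spread from 16.7 to 51.5 RPKM; *cid*, with 0 to 2 reads, is not drawn.

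Neither gene that carries the substitution passed the test for a difference in transcript level. A substitution of 1 residue leaves the reads of a gene in place, so RPKM does not check the genotype labels, and the reads that could were not used here. *His3.3B* stood at 100.5 and 111.4 RPKM in wild type, 121.1 and 125.5 RPKM in the single mutant, and 121.1 and 114.2 RPKM in the double mutant, on 427 to 630 reads. All 4 mutant libraries were above both wild type libraries, as were those of 9.59% of all genes tested. The mean in the single mutant was 123.3 ± 3.16 RPKM (SD, n = 2) against 106.0 ± 7.71 RPKM in wild type, a log2 fold change of 0.22 with a standard error of 0.11. This difference did not pass the threshold in limma (adjusted p = 0.463), and its 95% interval ran from a fold of 0.9752 to 1.39. In the double mutant it was 0.15 above wild type on the log2 scale, with an interval from 0.931-fold to 1.32-fold (limma adjusted p = 0.579).

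*His3.3A*, the other H3.3 gene, stood at 40.8 and 60.8 RPKM in wild type, 63.6 and 43.6 RPKM in the single mutant, and 52.5 and 58.5 RPKM in the double mutant. Libraries of the 3 genotypes overlapped. The second wild type library exceeded the first by 0.58 on the log2 scale, with a counting interval from 0.14 to 1.03. The means were 50.8 ± 14.2, 53.6 ± 14.1 and 55.5 ± 4.25 RPKM (SD, n = 2 each) in wild type, single and double mutants. Log2 fold changes against wild type were 0.08 for the single mutant and 0.15 for the double mutant (limma adjusted p = 0.935 and 0.828), with intervals of 0.703-fold to 1.59-fold and 0.739-fold to 1.67-fold. Without wild type replicate 1 the estimates were −0.20 and −0.13, and without single mutant replicate 1 the estimate for the single mutant was −0.19.

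*His3.3B* supplied more mRNA per length than *His3.3A* in 6 of 6 libraries. The RPKM ratio of *His3.3B* to *His3.3A* ranged from 1.83 to 2.88, with a mean log2 ratio of 1.13 ± 0.25 (SD over 6 libraries), a fold of 2.19. The exact paired permutation test over the 6 libraries, two-sided, gave p = 0.0313, the smallest value that 6 pairs allow. By genotype the fold was 2.13 in wild type, 2.34 in the single mutant and 2.12 in the double mutant. The size of the ratio depends on which transcript length is used, since *His3.3B* is listed with 2669 bases and *His3.3A* with 1002. With the longest annotated isoform of each gene it was 2.56-fold, with the shortest of each it was 3.23-fold, and with the longest of *His3.3B* and the shortest of *His3.3A* it was 2.13-fold. In reads alone *His3.3B* exceeded *His3.3A* 5.85-fold. *His3.3B* made up 67.9 ± 4.56% of the summed RPKM of both H3.3 genes in wild type, 69.9 ± 6.12% in the single mutant and 68.0 ± 2.58% in the double mutant (SD, n = 2 each), so the genotypes differed by less than the spread between libraries.

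*His3*, which encodes the replication-coupled H3 of the array, gave the smallest share of H3-type transcripts. Its RPKM was 25.5 and 35.3 in wild type, 16.7 and 29.3 in the single mutant, and 35.8 and 51.5 in the double mutant, on 19 and 35, 15 and 22, and 28 and 37 reads. Both double mutant libraries were above both wild type libraries and above both single mutant libraries, whereas the single mutant overlapped wild type. Of all genes tested, 22.4% were above wild type in this way in the double mutant and 25.5% above the single mutant. *His3* accounted for 16.2 ± 1.22% of the RPKM of *His3*, *His3.3A* and *His3.3B* in wild type, 11.5 ± 4.58% in the single mutant and 20.02 ± 4.17% in the double mutant (SD, n = 2 each). By library these shares did not overlap between genotypes, though wild type and the double mutant came as close as 17.0 and 17.1%. How often such shares separate in other gene families was not computed. The log2 fold change was 0.50 ± 0.31 (SE) for the double mutant against wild type and −0.42 ± 0.31 for the single mutant against wild type (limma adjusted p = 0.523 and 0.625). Between the mutants it was 0.92 ± 0.31 higher in the double, with an interval from 1.13-fold to 3.18-fold, an unadjusted p of 0.0233 and an adjusted p of 0.305 in limma. Single libraries moved these estimates widely. For the single mutant against wild type the log2 fold change was −0.03 without single mutant replicate 1, −0.81 without its replicate 2, −0.65 without wild type replicate 1 and −0.19 without wild type replicate 2. Without each library in turn the double mutant ranged from 0.24 to 0.76 above wild type and from 0.53 to 1.31 above the single mutant. With these few reads a difference of up to 2.38-fold between the double mutant and wild type was within the interval.

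The H4 pair differed between wild type and mutant libraries without overlap, in opposite directions for its members. *His4r* stood at 169.7 and 166.7 RPKM in wild type, 205.9 and 220.3 RPKM in the single mutant, and 231.9 and 202.0 RPKM in the double mutant. All 4 mutant libraries were above both wild type libraries, again as for 9.59% of genes tested. *His4*, the array gene for the same protein, stood at 57.1 and 46.5 RPKM in wild type, 41.5 and 37.8 RPKM in the single mutant, and 41.9 and 39.5 RPKM in the double mutant. Here all 4 mutant libraries were below both wild type libraries, as for 12.1% of genes tested, and the counts behind them were only 32 to 52 reads.

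Neither H4 gene passed the threshold. *His4r* was 1.27-fold higher by group means in the single mutant, with a log2 fold change of 0.34 ± 0.11 (SE) and an interval from 1.054-fold to 1.52-fold (limma adjusted p = 0.316). In the double mutant its ratio of means to wild type was 1.29, with a log2 fold change of 0.36 ± 0.11 and an interval from 1.07-fold to 1.54-fold (limma adjusted p = 0.218). For *His4* the log2 fold changes were −0.37 ± 0.14 and −0.34 ± 0.14 (limma adjusted p = 0.365 and 0.347). The 2 mutants gave close values for both genes, with log2 differences of 0.02 for *His4r* and 0.04 for *His4*, both of which changed sign under another scaling of the libraries. Their 95% intervals were 0.847-fold to 1.22-fold and 0.809-fold to 1.30-fold.

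The ratio of *His4r* to *His4* RPKM was also taken within each library, where depth cancels out. It was 2.97 and 3.58 in wild type, 4.96 and 5.83 in the single mutant, and 5.54 and 5.12 in the double mutant. As a share of H4 transcripts per length, *His4r* accounted for 76.5 ± 2.38% in wild type, 84.3 ± 1.51% in the single mutant and 84.2 ± 0.741% in the double mutant (SD, n = 2 each). Both mutants share the wild type libraries, and with 2 libraries in a genotype an exact two-sided permutation test between genotypes cannot go below p = 0.333, so these shares were not tested. The late testis genes described above also separate wild type from both mutants, with 7 of 7 lower in the mutants, as for 12.1% of all genes tested. The part of those transcripts in the *His4* and *His4r* values was not tested.

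**Figure D2:**
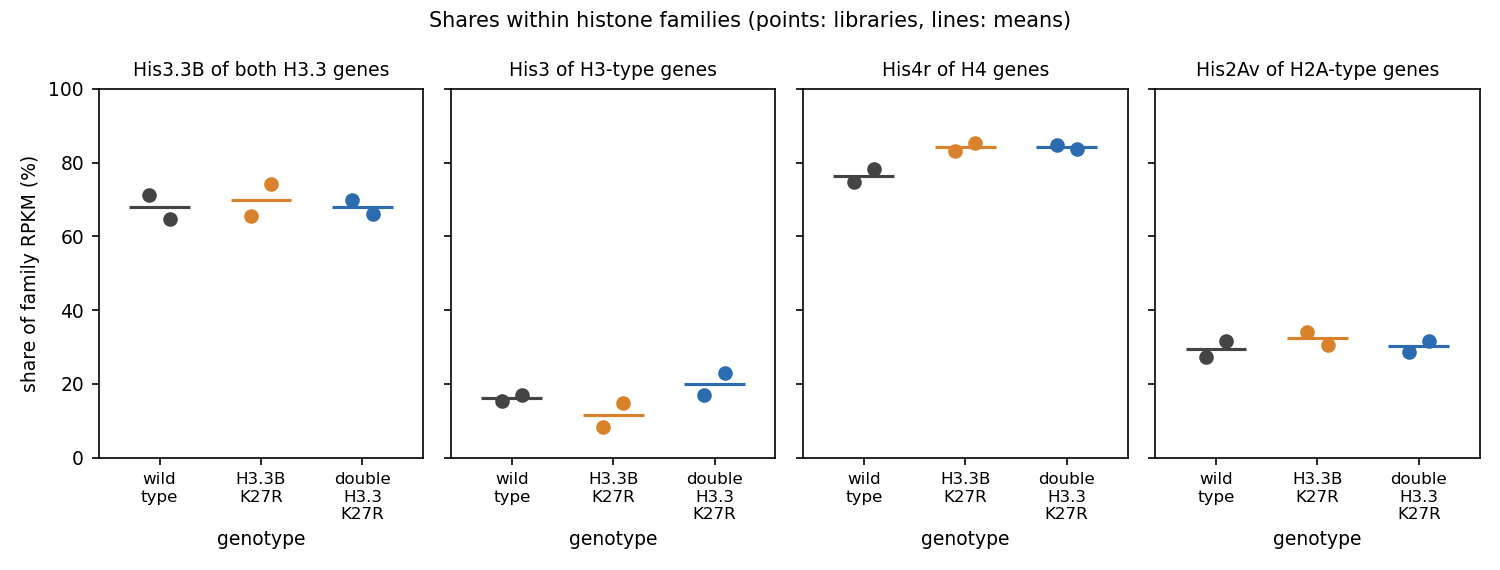
Share of 1 gene in the summed RPKM of its histone family, in percent, with 1 point for each library and a line at the mean of the 2 libraries of a genotype. The share of *His4r* among H4 transcripts was 74.8 and 78.2% in wild type and 83.2 to 85.3% in the 4 mutant libraries. The share of *His3* among H3-type transcripts did not overlap either, at 15.3 and 17.0% in wild type, 8.31 and 14.8% in the single mutant, and 17.1 and 23.0% in the double mutant. The shares of *His3.3B* and *His2Av* overlapped between genotypes.

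*His2A* and *His2B*, the array genes for the H2A and H2B partners of the nucleosome, were lowest in the single mutant and highest in the double mutant. *His2A* stood at 75.3 and 73.2 RPKM in wild type, 55.0 and 72.2 RPKM in the single mutant, and 85.2 and 78.0 RPKM in the double mutant. *His2B* stood at 67.9 and 57.8, 56.4 and 52.8, and 86.1 and 78.6 RPKM in the same order. For both genes, 2 of the 9 tested, no library of one genotype lay within the range of another. Of all genes tested, 12.3% were separated in this way in any order. In the order seen here, which was set after the values were known, 2.12% were. For *His2A* the closest libraries of wild type and single mutant were at 73.2 and 72.2 RPKM. That gap is smaller than 1 read, which is 1.29 RPKM in single mutant replicate 2. *His2B* in the double mutant was 0.39 ± 0.13 (SE) above wild type and 0.58 ± 0.13 above the single mutant on the log2 scale. The intervals were 1.06-fold to 1.62-fold and 1.21-fold to 1.85-fold, and neither difference passed the threshold (limma adjusted p = 0.2504 and 0.142). *His2A* was 0.37 ± 0.15 higher in the double than in the single mutant, with an interval from 1.00-fold to 1.66-fold (limma adjusted p = 0.396). Against wild type its log2 fold changes were −0.23 in the single mutant and 0.13 in the double mutant (limma adjusted p = 0.571 and 0.740), and the first was −0.04 without single mutant replicate 1 and −0.43 without its replicate 2.

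*His1*, which encodes the linker histone, gave no such separation. Its RPKM was 72.1 and 72.5 in wild type, 73.2 and 84.1 in the single mutant, and 100.5 and 58.7 in the double mutant. The double mutant libraries were the highest and the lowest of the 6, and they differed by 0.77 on the log2 scale with a counting interval from 0.38 to 1.18. Against wild type the log2 fold change was 0.12 ± 0.24 (SE) in the single mutant and 0.09 ± 0.24 in the double mutant (limma adjusted p = 0.888 and 0.907). The estimate for the double mutant was −0.30 without its replicate 1 and 0.47 without its replicate 2.

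Summed over the array, the 4 core genes without *His1* gave 225.9 and 212.8 RPKM in wild type, 169.7 and 192.2 RPKM in the single mutant, and 248.9 and 247.5 RPKM in the double mutant. The single mutant libraries were the lowest and the double mutant libraries the highest, with wild type between them. This sum holds *His2A* and *His2B*, for which the same order was given above. Of all single genes tested, 2.12% had it, and no such share was computed for sums of genes. *His4*, also in the sum, was below wild type in both mutants. The 5 replication-coupled genes together made up 45.0 ± 2.43% of the RPKM of all 10 histone genes in wild type, 38.1 ± 2.06% in the single mutant and 43.4 ± 1.14% in the double mutant (SD, n = 2 each). Other transcripts also separated the mutants from each other. Of all genes tested, 25.5% were above in the double mutant without overlap and 19.2% below. A set of 4 photoreceptor genes summed to 969.1 to 1059 RPKM in the single mutant and 1169 to 1183 RPKM in the double mutant, with 966.0 to 1038 RPKM in wild type, and none of the 4 was at 0 or at an adjusted p below 0.05. Between the mutants 2 of the 4 were above in the double mutant without overlap and 1, *ninaC*, was below, at 65.3 and 66.0 RPKM against 71.8 and 83.5 RPKM in the single mutant. For 4 flight muscle genes, also none at 0, the sums were 7960 to 7975, 8257 to 8577 and 7810 to 8527 RPKM in that order, with 3 of the 4 above and 0 below in the double against the single mutant. The part of these tissues in the array gene values was not tested.

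*His2Av* stood at 28.2 and 33.9 RPKM in wild type, 28.6 and 31.6 RPKM in the single mutant, and 34.2 and 36.2 RPKM in the double mutant. The wild type and single mutant libraries overlapped, and both double mutant libraries were slightly above all others. Of all genes tested, 22.4% had both double mutant libraries above both of wild type, and 25.5% above both of the single mutant. Relative to wild type, the log2 fold change was −0.04 ± 0.14 (SE) in the single mutant, a sign that other scalings turned, and 0.18 ± 0.14 in the double mutant (limma adjusted p = 0.944 and 0.633), with intervals from 0.765-fold to 1.23-fold and from 0.891-fold to 1.44-fold. H2Av transcripts made up 29.5 ± 3.13, 32.3 ± 2.64 and 30.2 ± 2.15% of the RPKM of *His2A* and *His2Av* in wild type, single and double mutants (SD, n = 2 each). The centromeric histone gene *cid* had 0 and 1 read in wild type, 1 and 1 in the single mutant, and 1 and 2 in the double mutant. Its mean of 0.57 RPKM was under the minimum of 1 RPKM for testing. The 0 reads of wild type replicate 1 allow a level of up to 1.83 RPKM at 3 reads, so a difference between genotypes was not detectable at this depth.

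Across the family, 9 of the 10 genes reached the minimum level and were tested beside 11304 genes in all. At the threshold used for the study, an adjusted p below 0.01 with an absolute log2 fold change above 1, limma called 0 of 9 histone genes in each comparison. The background was 0.00885% of all genes tested for the single mutant against wild type, 0.133% for the double mutant against wild type and 0.0619% for the double mutant against the single mutant. With so few calls over all genes, a count of 0 among 9 is near the background. At an adjusted p below 0.05 the count was again 0 of 9 in each comparison, against 0.0619, 0.832 and 0.310% of all genes. The limma voom test on recovered reads also called none of the 9.

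Without adjustment, 2, 2 and 3 of the 9 genes had p below 0.05 in limma, where 12.4, 14.8 and 12.5% of all genes did. For the single mutant against wild type these were *His4r*, higher as were 4.22% of all genes, and *His4*, lower as were 8.14%. For the double mutant against wild type they were *His4r* and *His2B*, both higher, where 7.19% of all genes were higher and 7.59% lower. For the double against the single mutant they were *His2A*, *His2B* and *His3*, all higher, where 7.42% were higher and 5.06% lower. In the double mutant 6 of the 9 genes had both libraries above both of wild type, where 22.4% of all genes did, and only *His4* had both below, where 22.2% did. In the single mutant 3 genes (*His1*, *His4r* and *His3.3B*) were above and 3 (*His2A*, *His2B* and *His4*) below, where 19.6 and 25.3% of all genes were. Between the mutants 4 genes (*His2A*, *His2B*, *His3* and *His2Av*) were above in the double and 0 below, where 25.5 and 19.2% of all genes were. The first 2 comparisons share the wild type libraries and the third shares each mutant with one of them, so these counts are not independent.

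The median log2 fold change of the 5 replication-coupled genes was −0.23 in the single mutant and 0.13 in the double mutant against wild type, and 0.37 between the double and the single mutant. For the 4 variant and replacement genes that were tested it was 0.15, 0.16 and 0.05. The medians over all genes tested were −0.02, 0.00 and 0.03. The replication-coupled genes were above 0 in 1, 4 and 4 of 5 cases, and the variant and replacement genes in 3, 4 and 3 of 4. The largest fold change that the 95% intervals allowed for any of the 9 genes against wild type was the 2.38-fold of *His3* in the double mutant.

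**Figure D3:**
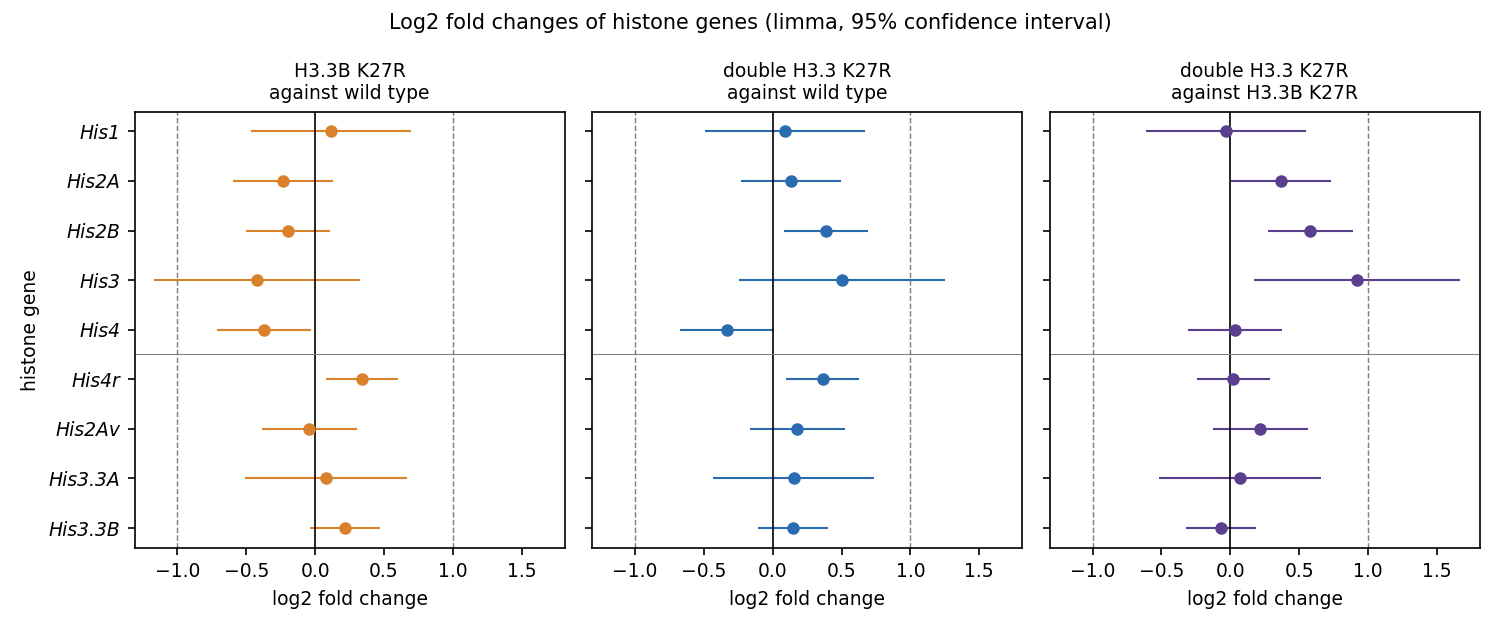
Log2 fold changes of 9 histone genes in the 3 comparisons, on the scale of log2(RPKM + 1), with points for the limma estimates, bars for their 95% confidence intervals and dashed lines at the threshold of 1 in either direction. Replication-coupled genes are above the grey line and replacement or variant genes below it. No gene passed the threshold, and every estimate lay between −0.42 and 0.92.

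Genes that make, process or deposit histones were read beside the family. Of 12 genes for the 3′ end of histone mRNA and the histone locus body, all 12 were tested and 0 passed the adjusted threshold in any comparison. Their median log2 fold changes were −0.01, 0.15 and 0.21 in the order of comparisons above. *Slbp*, which encodes the protein that binds the histone mRNA stem-loop, stood at 13.9 and 15.4 RPKM in wild type, 15.7 and 18.2 RPKM in the single mutant, and 20.6 and 23.6 RPKM in the double mutant. No libraries of the 3 genotypes overlapped for *Slbp*, as for 12.3% of all genes tested, and the log2 fold change of 0.56 in the double mutant did not pass the threshold (limma adjusted p = 0.199). The other most abundant genes of the list were *wge*, at a mean of 17.8 RPKM, and *mute*, at 4.04 RPKM.

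Replication genes were read next. Of 25 DNA replication genes, 10 reached a mean of 1 RPKM, with median log2 fold changes of −0.18, −0.17 and 0.12 and 0 past the adjusted threshold. *mus209*, which encodes PCNA, the sliding clamp of the replication fork, stood at 6.62 and 4.52 RPKM in wild type, 3.0 and 2.99 RPKM in the single mutant, and 2.86 and 1.87 RPKM in the double mutant. All 4 mutant libraries were below both of wild type, as for 12.1% of all genes tested. The log2 fold change was −0.96 in the double mutant (limma adjusted p = 0.232). *geminin*, an inhibitor of origin licensing, was higher, at a mean of 20.8 RPKM, and *RPA2* of the single-strand binding complex was at 4.03 RPKM.

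Of 12 mitotic genes 11 were tested, with medians of −0.43, −0.14 and 0.16 and 0 past the adjusted threshold. *stg*, the Cdc25 phosphatase that drives entry into mitosis, stood at 22.2 and 31.7 RPKM in wild type, 44.1 and 39.9 RPKM in the single mutant, and 25.4 and 26.4 RPKM in the double mutant. Both single mutant libraries were above the other 4, by 0.64 on the log2 scale over wild type (limma adjusted p = 0.284). Of all genes tested, 19.6% had both single mutant libraries above both of wild type and 25.3% below. *polo*, a mitotic kinase, and *CycB*, a mitotic cyclin, averaged 8.12 and 7.07 RPKM and were below in this way. *polo* stood at 5.96 and 6.28 RPKM in the single mutant against 9.91 and 9.98 RPKM in wild type (limma adjusted p = 0.313). *CycB* stood at 5.49 and 5.77 against 7.61 and 8.73 RPKM (limma adjusted p = 0.431). The list for exchange of H2Av, built on the Domino and Tip60 complex, had 14 of 15 genes tested, 0 past the adjusted threshold and medians of 0.08, −0.05 and −0.09. Its most abundant genes were *E(Pc)* at 15.1, *MrgBP* at 15.1 and *dom*, the ATPase that exchanges H2Av, at 14.1 RPKM. *cal1*, the loading factor of the centromeric histone, averaged 4.24 RPKM and *Cenp-C*, which binds centromeric nucleosomes, 2.51 RPKM, beside the 0.57 RPKM of *cid*. Of 8 early germline and gonad genes 4 were tested, with *bgcn* at 3.81, *tj* at 1.86 and *aub* at 1.10 RPKM the most abundant, medians of −0.19, −0.08 and 0.11, and 0 past the adjusted threshold.

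**Figure D4:**
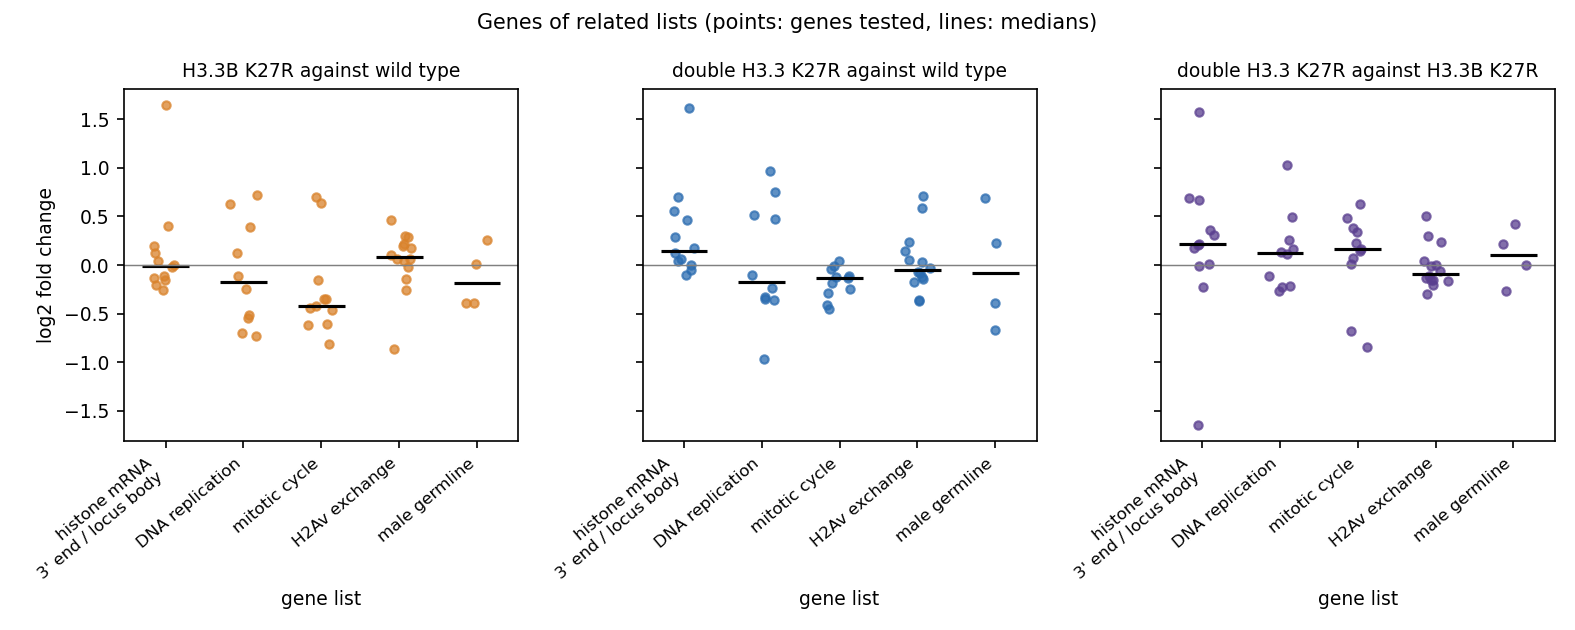
Log2 fold changes of the genes tested in 5 related lists, in the 3 comparisons, with 1 point for each gene and a line at the median of the list. Medians lay between −0.43 for mitotic genes in the single mutant and 0.21 for histone mRNA processing genes between the mutants.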

How the data were processed

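RNA-seq was made from total RNA of whole pharate males, 100 ng in each library, with a Nugen Ovation kit for model organisms on an Illumina MiSeq. The authors aligned reads with STAR to a dm3 genome in which the histone array was replaced by 1 copy of each gene, counted them with Subread, and computed the deposited RPKM values with an R script of their own. The submitters' processing notes name STAR 2.5.2b, Subread 1.28.1, SAMtools 1.3.1 and DESeq2 1.18.1. A second deposited table holds the authors' own DESeq2 comparison, with a pooled mean, a shrunken log2 ratio, its standard error, a test statistic and p-values, and was not used. The sequencing runs of single mutant replicate 1 were merged by the authors.

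RPKM was tested on the scale of log2(RPKM + 1), on which fold changes of low genes are understated. The fit was by limma 3.58.1 in R 4.3.3 with a mean-variance trend, over 11304 genes with a mean of at least 1 RPKM and with all 3 genotypes sharing 1 estimate of spread, with Benjamini-Hochberg adjustment over all genes tested. A gene was called where the adjusted p was under 0.01 and the log2 fold change was beyond 1 in either direction, the limits used by the authors. Reads were recovered from RPKM: all 73342 values above 0, or 100%, came within 0.01 of a whole number of reads. Exact Poisson intervals at the 95% level came from those reads and cover counting error only. The fit was also run on simulated reads with planted changes. These were all larger than the estimates of the histone genes, so the run does not vouch for changes of that size.

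All 10 histone genes are named in each comparison. From every related list the rule was to name genes with an adjusted p below 0.05, or the 3 with the highest mean RPKM where there were none, as in all lists here. The members and lists were chosen with earlier results of these data known. Gene positions came from the BDGP6 annotation. Alternatives were another pseudocount, other filters on low values, quantile and median scaling, a fit of 2 genotypes alone, no trend, a replicate block, limma voom on recovered reads, another threshold, and leaving out each library.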

Additional observations from a re-analysis of the deposited data

How the results depend on the processing

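No histone gene was called in any of the 3 comparisons under any alternative, and the smallest adjusted p of a histone gene in any of these fits was 0.121. Over 27 gene comparisons and 441 alternative values, 420 kept their sign and 21 did not, in 8 of these comparisons. Many of the 441 could not change sign. Other filters, fewer genotypes, a replicate block, no trend and another threshold leave the log2 fold change as it is by construction. So does leaving out a library of the genotype that is not compared. The 420 are therefore no measure of robustness. For *His2Av* in the single mutant against wild type the log2 fold change was 0.0050 with quantile scaling and 0.011 with median centring. Between the double and single mutant, *His4* was at −0.0020 with quantile scaling, −0.016 with median centring and −0.011 with voom, and *His4r* at −0.028 with median centring and −0.018 with voom. Leaving out each library in turn, where the lone library is assumed to vary like the others, gave ranges of −0.17 to 0.087 for *His2Av* and −0.20 to 0.36 for *His3.3A* in the single mutant, and −0.30 to 0.47 for *His1* and −0.13 to 0.43 for *His3.3A* in the double mutant, each against wild type. Between the mutants the ranges were −0.41 to 0.35 for *His1*, −0.030 to 0.10 for *His4*, −0.076 to 0.12 for *His4r* and −0.20 to 0.34 for *His3.3A*. The cause of these turns was not tested. The log2 ratio of *His3.3B* to *His3.3A* was 1.06 to 1.19 without single libraries, with an exact p of 0.0625, the smallest that 5 libraries allow.

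Over all genes, limma called 1 gene for the single mutant against wild type, 15 for the double mutant against wild type and 7 between the mutants. With voom on recovered reads the counts were 7, 50 and 42, and at an adjusted p below 0.05 with no threshold on fold change they were 7, 94 and 35. For the double mutant against wild type the count was 4 with those 2 genotypes alone and 4 without the trend, and 2 and 2 between the mutants, where it was 4 with no filter on low values. Leaving out libraries gave 0 to 1, 1 to 5 and 2 to 2 calls. The cause of these shifts in count was not tested, beyond the fewer libraries or more genes that some fits hold by construction. Whether equal replicate numbers pair libraries is not given. Same-numbered libraries of 2 genotypes deviated with correlations of 0.02 (wild type and single), −0.21 (wild type and double) and 0.01 (single and double), which cannot settle it. With the replicate block the counts were 1, 3 and 2, no histone gene was called, and a crossed block for the double mutant against wild type, chosen after seeing the data, also gave 3. *His3* was higher in replicate 2 of all 3 genotypes. Its unadjusted limma p with the replicate block was 0.037 for the single and 0.020 for the double mutant against wild type, and 0.0015 between the mutants. The adjusted p-values were 0.457, 0.300 and 0.170. The isoform lengths used for the H3.3 ratio were likewise chosen after seeing the data. At 15 to 52 reads in a library, *His3* and *His4* are limited by depth, and *cid* at 0 to 2 reads could not be compared.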
